A study of Mus musculus with 10 samples.

Results

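The secreted Wnt antagonists *Dkk1*, *Dkk2*, *Dkk3*, *Sfrp1*, *Sfrp2*, *Frzb* and *Wif1* and the Wnt ligands *Wnt5a*, *Wnt5b* and *Wnt4* were followed while mouse embryonic fibroblasts (MEFs) were turned by chemicals into cells of an extraembryonic endoderm (XEN)-like state. These 10 genes were chosen by name from a table of 23197 genes, with earlier results of these data known, and all 10 were in it. The fibroblasts came from ICR mouse embryos without head, limbs and viscera, and d0 cells are these fibroblasts. Cells of all later groups had been moved to a reprogramming medium with serum replacement, basic fibroblast growth factor and the mixture C6FAE. C6FAE stands for CHIR99021, an inhibitor of the kinase GSK3, RepSox, an inhibitor of a TGF-beta receptor, Forskolin, which raises cAMP, AM580, an agonist of the retinoic acid receptor, and EPZ004777, an inhibitor of the histone methyltransferase Dot1l. The study's methods also list valproic acid in this medium, which the name leaves out. The medium was given for 12 days according to the labels and for 12 to 20 days according to the methods, so whether d20 cells were still exposed to it is not known here.

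Wnt proteins are secreted signals that bind Frizzled receptors. With the co-receptors Lrp5 and Lrp6 they keep GSK3 and its partners from degrading beta-catenin, which then acts in the nucleus with TCF and LEF factors, whereas Wnt5a is best known for signals that do not need beta-catenin and use receptors such as Ror2. Secreted antagonists act outside the cell. Dkk1 and Dkk2 bind Lrp5 and Lrp6, and the Sfrp proteins, Frzb and Wif1 bind Wnt proteins themselves. An inhibitor of GSK3 such as CHIR99021 acts inside the cell, downstream of all these proteins.

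Single cells were picked by hand, and their RNA molecules were counted with unique molecular identifiers (UMIs). The 12 groups are named by day, and d8c and d12c are cells picked from colonies on days 8 and 12. The meaning of the p in d6p is not stated. Of 808 cells, the 670 with at least 4000 detected genes were kept. These were 72 of 84 cells at d0, 40 of 40 at d1, 83 of 88 at d2, 38 of 40 at d3, 77 of 88 at d4, 36 of 36 at d5, 86 of 96 at d6p, 62 of 72 at d8, 20 of 24 at d8c, 67 of 72 at d12, 51 of 96 at d12c and 38 of 72 at d20. Median depths were 344196 UMIs per cell in d0, 676178 in d8, 768565 in d12 and 195480 in d20, the lowest, with 1055206 in d2, the highest. UMIs were scaled to counts per 1e6 UMIs of the cell (CPM). Levels below are means of CPM over the cells of a group unless another measure is named.

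The 10 sequenced samples are batches that the cell names do not show, so the table counts as 1 sample without replicates. No test between groups was made, and no difference below has a replicate check. Intervals are at 95% and cover counting error only, after Poisson for UMIs and after Clopper and Pearson for shares of cells.

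The labels were checked against markers. The 8 fibroblast markers summed to 3135.9 CPM at d0, 11780.5 at d8, 9556.4 at d12 and 290.7 at d20. Of the latter, 200.9 CPM came from *Pdgfra*, while *Col1a1* had 3.63 CPM and *Col3a1* 8.46 CPM. The 10 XEN markers summed to 67.6 CPM at d0, 169.9 at d12, 879.7 at d12c and 1517.3 at d20, where all 10 were detected and *Sox17* led with 982 CPM. Cells labelled d0 thus carried fibroblast markers with *Sall4*, *Foxa2* and *Amn* at 0, and d20 cells carried XEN markers. Unpicked d12 cells were mostly low in XEN markers, with a median sum of 46.2 CPM.

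*Dkk1* encodes an antagonist of the Lrp co-receptors and is itself a well-known target of beta-catenin. It lies at chr19:30620353-30624155 on the minus strand (NCBIM37). Its mean was 2.67 CPM at d0, 15.0 at d1, 32.3 at d2, 85.2 at d3, 33.1 at d4, 135 at d5, 8.81 at d6p, 8.97 at d8, 0.399 at d8c, 0.0466 at d12, 2.46 at d12c and 23.9 at d20. *Dkk1* was thus high from d2 to d5, nearly absent at d12, and at 23.9 CPM again at d20. At d12 only 2 UMIs were counted in 67 cells (interval 0.242 to 7.22), against 4050 at d5 (3926 to 4177) and 172 at d20 (147 to 200). As a share of all summed UMIs, d20 was 552.5-fold above d12, with a counting interval of 150.6 to 4598.7.

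The *Dkk1* message was carried by few cells. At d5 the 4 highest of 36 cells held 64.2% of the summed CPM, and at d1 the 4 highest of 40 held 85.85%. The median over cells was 0 at d0, d1, d6p, d8c, d12, d12c and d20 and did not pass 5.16 CPM, its value at d3. At least 20 CPM were found in 15 of 36 cells at d5 (41.7%), 0 of 67 at d12 and 10 of 38 at d20 (26.3%). A UMI was found in 13 of the d20 cells, against 12 for *Col1a2*, a collagen that XEN cells should lack and that reached 20 CPM in 5. *Col1a2* is far more abundant in fibroblasts, and whether stray RNA adds to the *Dkk1* UMIs was not tested. Without its highest cell the mean was more than 1.5 times lower at d0 (0.697 CPM), d1 (6.96), d3 (52.4), d8 (4.97), d12 (0.0201) and d12c (1.44).

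*Dkk2*, which also binds the Lrp co-receptors and can act as an agonist or an antagonist, lies at chr3:131748256-131843257 on the plus strand. Its mean was 35.7 CPM at d0, 83.8 at d1, 126 at d2, 160.3 at d3, 90.4 at d4, 70.3 at d5, 53.2 at d6p, 139 at d8, 206 at d8c, 32.9 at d12, 43.3 at d12c and 10.4 at d20. The mean was above that of d0 in every group from d1 to d8c, although the median of d6p (4.72 CPM) lay below that of d0 (8.95 CPM), and it was lower at d20. The difference of d12 to d0 was near 0 (-0.115 on the log2 scale used below) and turned positive with TMM or DESeq2 factors and in cells numbered 49 to 96. The medians were far lower, between 0 and 37.5 CPM, and at d8 the highest cell had 2384.4 CPM. At d20 *Dkk2* had a UMI in 5 of 38 cells (13.2%) and 20 CPM in 3. For fibroblast collagens, which XEN cells should lack, a UMI was found in 5 of these cells for *Col1a1*, 4 for *Col3a1* and 12 for *Col1a2* (31.6%), and 20 CPM were reached in 1, 2 and 5. These genes are far more abundant in fibroblasts, and whether their UMIs come from the cells or from stray RNA was not tested. *Sostdc1*, *Wnt2* and *Rspo3*, named below, had no UMI at d20. Without the highest cell its mean at d20 was 4.14 CPM.

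*Dkk3* is the divergent member of the Dickkopf family, and its action on Wnt signalling is less clear. It lies at chr7:119259533-119302571 on the minus strand. Its mean was 20.9 CPM at d0, 21.2 at d1, 20.8 at d2, 43.7 at d3, 116 at d4, 82.3 at d5, 136 at d6p, 211 at d8, 191 at d8c, 190.0 at d12, 111 at d12c and 77.2 at d20. It was level through d2 and several times higher from d4 on. *Dkk3* was spread over cells: at d8 its median of 208 CPM was close to the mean, 56 of 62 cells had at least 20 CPM, and the 7 highest cells held 27.4% of the summed CPM. At d0 these numbers were a median of 1.17 CPM and 16 of 72 cells.

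*Sfrp1* encodes a secreted Frizzled-related protein with the Wnt-binding domain of the Frizzled receptors. It lies at chr8:24521974-24560104 on the plus strand. Its mean was 50.8 CPM at d0, 17.2 at d1, 23.2 at d2, 16.2 at d3, 71.8 at d4, 97.6 at d5, 259 at d6p, 169.5 at d8, 29.4 at d8c, 409 at d12, 105.5 at d12c and 27.2 at d20. Low values stood on d1 to d3 and the highest at d12, where 24299 UMIs were counted (23994.4 to 24606.5). Every kept cell of d6p, d8, d8c and d12 had an *Sfrp1* UMI, against 53 of 72 at d0 and 18 of 38 at d20. The mean of d1 was 10.7 CPM without its highest cell. After thinning to 50000 UMIs per cell the shares were 50.7% at d0, 93.8% at d6p, 89.4% at d12 and 27.8% at d20.

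*Sfrp2*, its paralogue, lies at chr3:83570243-83578238 on the plus strand. Its mean was 182 CPM at d0, 16.1 at d1, 70.7 at d2, 80.4 at d3, 57.7 at d4, 41.8 at d5, 63.8 at d6p, 43.8 at d8, 31.6 at d8c, 32.9 at d12, 5.07 at d12c and 14.6 at d20. The level was highest in the fibroblasts and at least 4-fold lower after 1 day. The share of cells with at least 20 CPM was 36 of 72 at d0 and 8 of 40 at d1, and the thinned share with a UMI was 62.0% at d0 and 10 of 40 cells at d1. The median was 17.8 CPM at d0 and 1.44 CPM at d1. The mean of d8c was 18.7 CPM without its highest cell.

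The d0 culture also held cells with markers of skeletal muscle and cartilage, and mean levels of both were lower at d1. All 5 muscle markers were detected at d0 and summed to 439 CPM, with *Actc1* the most abundant at 224 CPM, against 6.28 CPM at d1. The 5 cartilage markers summed to 56.0 CPM at d0, with *Col2a1* at 33.6 CPM and *Matn1* at 0, and to 31.9 CPM at d1, but the median over cells went from 2.36 to 10.6 CPM. Muscle markers reached 100 CPM in 5 cells of d0, in which *Sfrp2* had a mean of 127 CPM. Without them the *Sfrp2* level of d0 was 186 CPM, and the d0 cells left had 4.395 CPM of *Wif1* in place of 8.17. The part of cartilage cells was not tested. The *Sfrp2* level of d0 also differed between cells numbered 1 to 48 (97.7 CPM, 43 cells) and 49 to 96 (307 CPM, 29 cells), at like median depths of 348193 and 340198 UMIs.

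*Frzb*, also called Sfrp3, lies at chr2:80252127-80287782 on the minus strand. Its mean was 3.67 CPM at d0, 9.78 at d1, 22.9 at d2, 27.9 at d3, 22.3 at d4, 31.1 at d5, 6.86 at d6p, 1.79 at d8, 4.81 at d8c, 24.4 at d12, 40.1 at d12c and 91.5 at d20. Like *Wnt5b* below, it had its highest mean at d20, after a lower peak on d2 to d5 and a trough at d8. At d20, 36 of 38 cells had a UMI (94.7%, interval 82.2 to 99.4), 28 had at least 20 CPM, and the median was 60.6 CPM. At d0, 37 of 72 cells had a UMI but only 3 had at least 20 CPM. Without the highest cell the mean was more than 1.5 times lower at d1 (3.27 CPM), d5 (18.7), d6p (3.95), d8 (0.891) and d8c (2.04).

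*Wif1* encodes a Wnt inhibitory factor of a different fold that binds Wnt proteins. It lies at chr10:120471016-120537706 on the plus strand. Its mean was 8.17 CPM at d0, 29.2 at d1, 71.5 at d2, 127 at d3, 164.5 at d4, 290.4 at d5, 70.8 at d6p, 161 at d8, 93.9 at d8c, 62.0 at d12, 34.6 at d12c and 4.99 at d20. The level climbed from d0 to d5 and was low at d20, where 31 UMIs were counted (21.1 to 44.0). Without cells high in muscle markers d0 had 4.395 CPM, below d20, so the order of d0 and d20 turns. At d20, 5 of 38 cells had a UMI. Without the highest cell the mean was more than 1.5 times lower at d0 (4.32 CPM), d1 (17.5), d12 (38.9) and d20 (1.06). At d5, 25 of 36 cells had at least 20 CPM and the median was 89.3 CPM.

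Among the ligands, *Wnt5a* at chr14:29317936-29340633 on the plus strand had mean levels of 58.3 CPM at d0, 75.4 at d1, 118 at d2, 138 at d3, 216 at d4, 269 at d5, 276 at d6p, 323 at d8, 212 at d8c, 229.6 at d12, 87.7 at d12c and 30.8 at d20. It was present in most cells before d12c and climbed through d8, but in cells numbered 49 to 96 it had 316 CPM at d4, 214 at d6p and 195.5 at d8. At least 20 CPM were found in 44 of 72 cells at d0, 55 of 62 at d8, 52 of 67 at d12 and 13 of 38 at d20. The medians were 33.3, 216, 134 and 0 CPM in these groups.

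*Wnt4*, a ligand known from kidney and gonad development, lies at chr4:136833404-136855641 on the plus strand. Its mean was 6.62 CPM at d0, 7.74 at d1, 11.3 at d2, 36.9 at d3, 65.9 at d4, 69.5 at d5, 90.3 at d6p, 78.9 at d8, 17.4 at d8c, 40.5 at d12, 34.3 at d12c and 11.4 at d20. It was low through d2 and highest between d4 and d8, and the mean of d1 was 5.02 CPM without the highest cell. *Wnt5b*, the close paralogue of *Wnt5a* at chr6:119382549-119494336 on the minus strand, was scarce. Its mean was 0.191 CPM at d0, 0.484 at d1, 2.24 at d2, 3.69 at d3, 2.525 at d4, 2.57 at d5, 2.49 at d6p, 1.875 at d8, 3.08 at d8c, 1.315 at d12, 3.48 at d12c and 7.40 at d20. The lowest and highest levels stood at the ends of the course, with 3 UMIs in the 72 cells of d0 (0.619 to 8.77) and 64 in the 38 cells of d20 (49.3 to 81.7). At d20, 7 cells held a *Wnt5b* UMI and 6 had at least 20 CPM, against 12 and 5 cells for the collagen *Col1a2*. Without the highest cell the *Wnt5b* mean was more than 1.5 times lower at d5, at d0 (0.0496 CPM), d1 (0.277), d6p (0.898), d8c (0.195), d12 (0.854) and d12c (2.22).

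**Figure D1:**
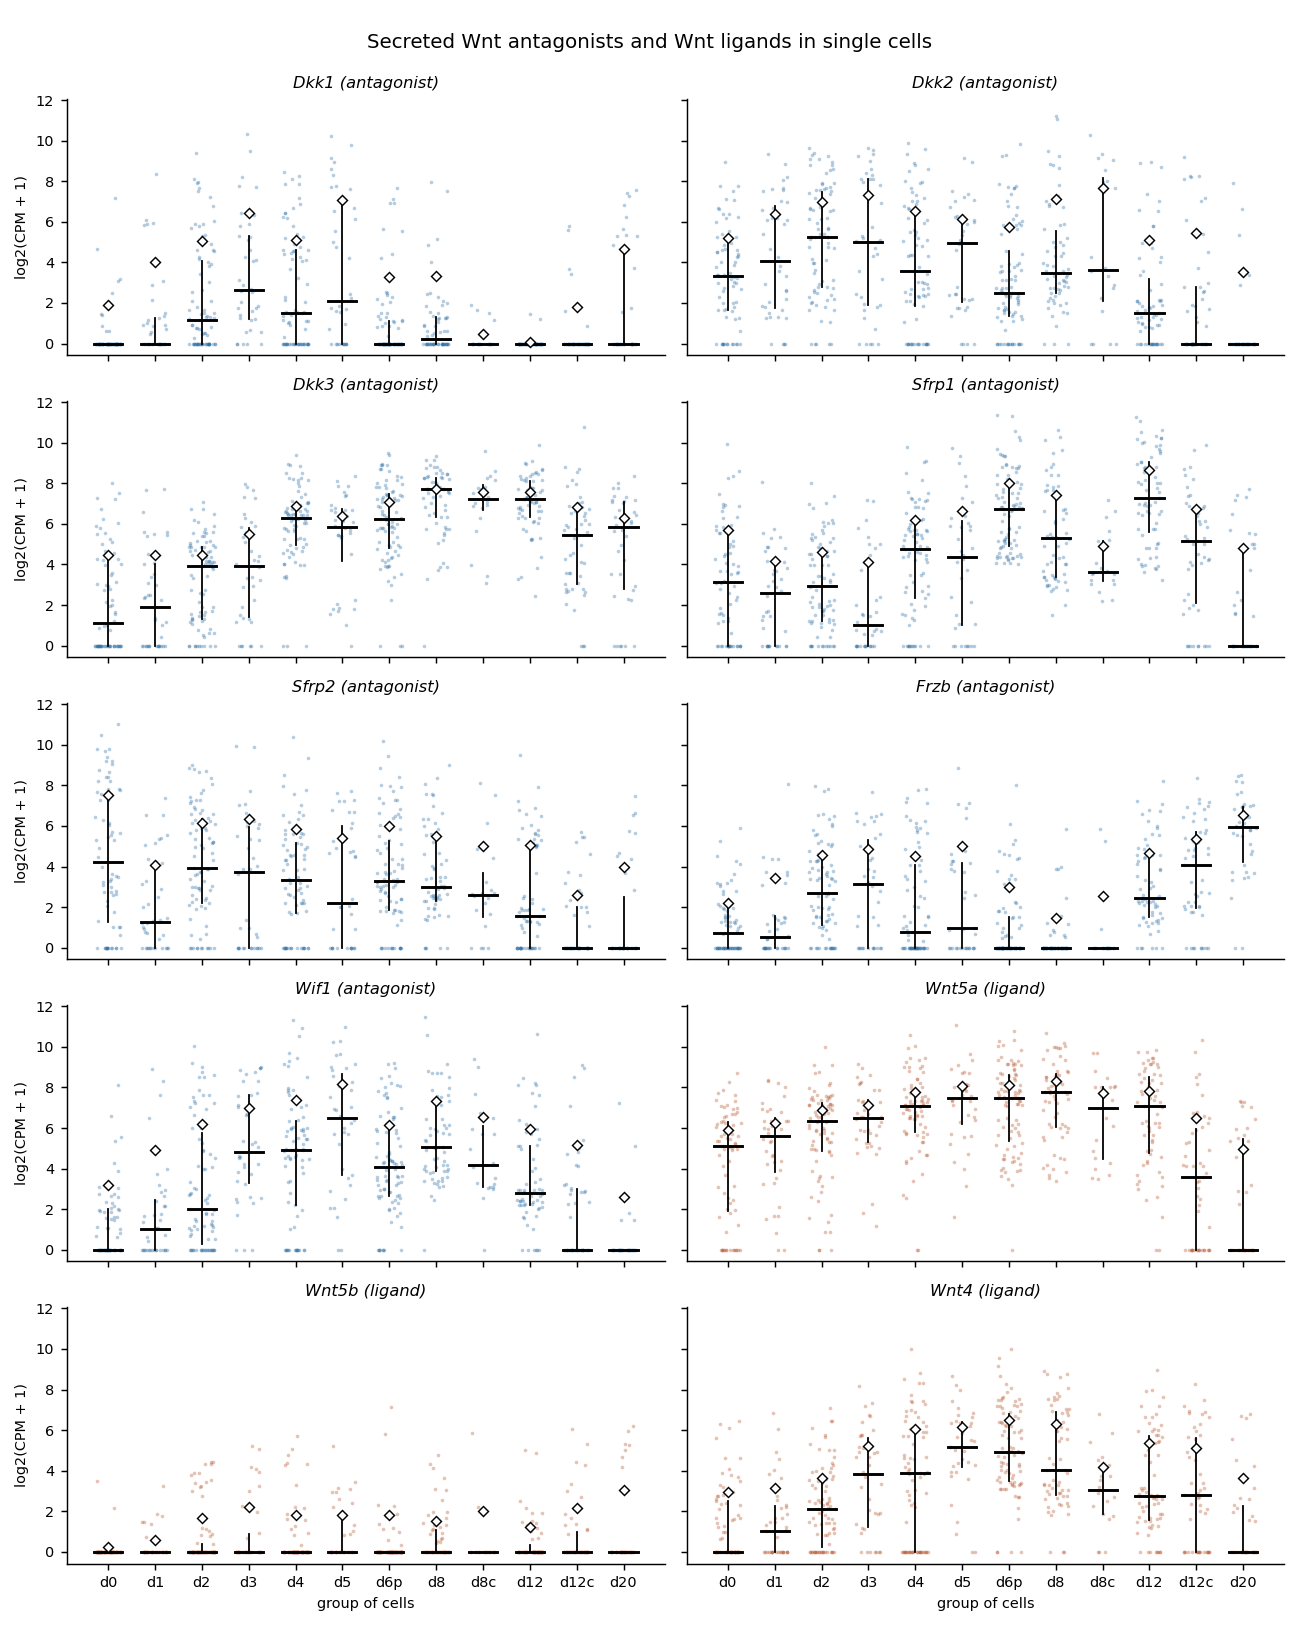
Level of each of the 10 genes in every kept cell, as log2(CPM + 1) on the vertical axis against the 12 groups on the horizontal axis. Points are cells, thick bars are medians, thin lines run from the first to the third quartile, and diamonds are log2 of the mean CPM + 1. *Dkk1* diamonds lie far above their medians from d1 to d5, and *Frzb* has its highest median, 60.6 CPM, at d20.

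When the groups were ordered by mean level, each gene had 11 pairs of neighbours in that order. The quartile ranges of the cells overlapped in all 110 pairs. Many of these ranges begin at 0, and cells are no replicates, so the order of neighbours is not read as a difference and the overlap is not read as likeness.

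The 7 antagonists together summed to 304 CPM at d0, 192 at d1, 368 at d2, 541 at d3, 556 at d4, 749 at d5, 598 at d6p, 735 at d8, 556 at d8c, 751 at d12, 342 at d12c and 249.7 at d20. The sum was lowest 1 day after the start by means over all kept cells and about equally high at d5, d8 and d12, while its makeup turned over. Between d0 and d20 the order depends on the measure, since the median over cells was 154 CPM at d0 and higher at d20, the reverse of the means. *Sfrp2* supplied 59.9% of the summed CPM at d0, *Wif1* 38.8% at d5, *Sfrp1* 54.5% at d12 and *Frzb* 36.6% at d20. *Dkk1* supplied 18.05% at d5 and 0.00620% at d12. The d12 sum was the highest by CPM, but under 6 alternatives named in the closing section d5 was the highest.

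The 3 ligands summed to 65.1 CPM at d0, 83.6 at d1, 132 at d2, 178 at d3, 285 at d4, 341 at d5, 369 at d6p, 404 at d8, 233 at d8c, 271.5 at d12, 125.5 at d12c and 49.5 at d20. The ligand sum climbed without a break from d0 to d8. It was low at d0 and d20, and which of them was lower turned without a filter on cells, with filters of 2000 or 6000 genes and in cells numbered 1 to 48. In cells numbered 49 to 96, found in 7 groups, the sum was highest at d4 (337.3 CPM) and lower at d8. *Wnt5a* supplied 89.5% of it at d0, 80.0% at d8 and 62.1% at d20, where *Wnt5b* supplied 15.0%.

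**Figure D2:**
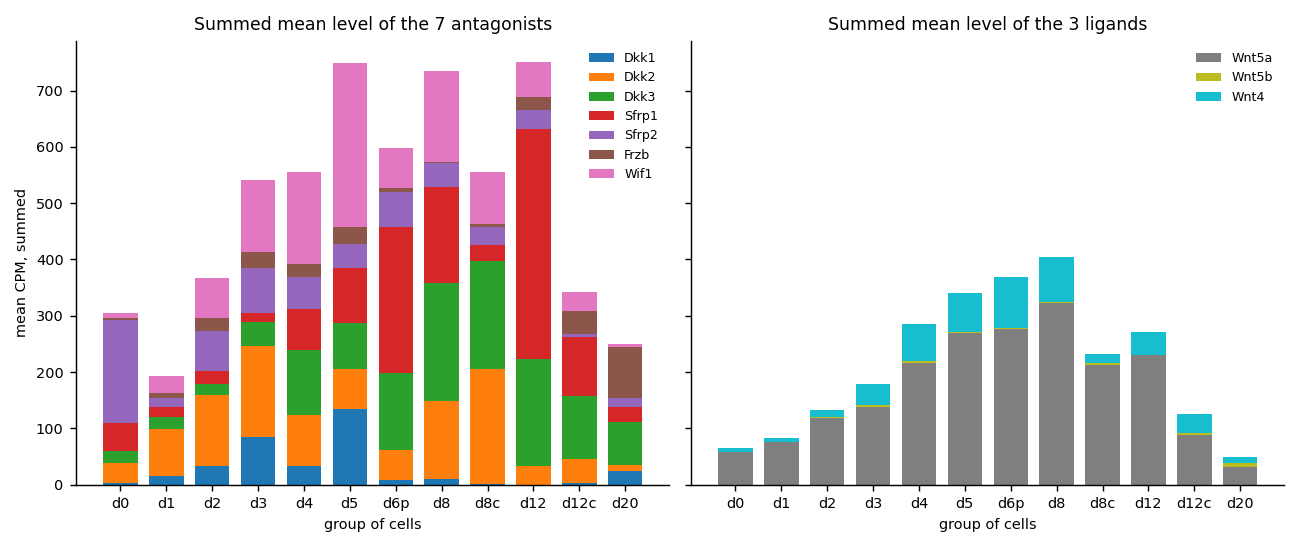
Mean CPM of the 7 antagonists (left) and of the 3 ligands (right), stacked by gene in each of the 12 groups, on a shared axis that starts at 0. The antagonist bars reach 749, 735 and 751 CPM at d5, d8 and d12 with different genes, and the ligand bars reach 404 CPM at d8 and 49.5 CPM at d20.

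To ask how much moved between time points, means were compared on the scale of log2(mean CPM + 1). A gene counted as past the fold when it differed at least 4-fold (2 on this scale) and had a mean of at least 5 CPM in either group. Percentages beside counts are over all genes that reach 5 CPM in the comparison. A gene below 5 CPM in 1 group enters through the other and can only be called higher there. Among members called, these were *Dkk1* at d1, *Frzb* at d12, and *Frzb*, *Wnt5b* and *Dkk1* at d20 against d0. Against d12 they were *Dkk1* and *Wif1* at d20. Members and lists were chosen with earlier results of these data known, so their counts beside these shares describe and do not test. After 1 day, 1 of the 9 members that reach it, *Dkk1*, was higher past the fold (2.12), against 2.56% of 9514 genes, and 1, *Sfrp2*, was lower (-3.42), against 3.82%. At 8 days, 4 of 8 members were higher (*Wif1* by 4.14, *Wnt4* by 3.39, *Dkk3* by 3.27 and *Wnt5a* by 2.45), against 7.03% of 9928 genes, and *Sfrp2* was lower (-2.03), as were 4.68%. In cells numbered 49 to 96 *Wnt5a* at d8 differed by 1.28, not past the fold.

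At d12, 5 of the 8 members that reach 5 CPM were higher than at d0 past the fold, against 9.58% of 9942 genes. They were *Dkk3* (3.12), *Sfrp1* (2.99), *Wif1* (2.78), *Frzb* (2.45) and *Wnt4* (2.45). *Sfrp2* was lower (-2.43), against 5.27% of genes. In cells numbered 49 to 96 *Sfrp1* (1.69) and *Wnt4* (1.35) were not past the fold. *Wnt4* also lost its place with UMIs summed over groups, and *Frzb* (1.93) with means of log2 values. At d20, 3 members were higher than at d0, which is 3 of 10 against 9.03% of 10157 genes, and they were *Frzb* (4.31), *Wnt5b* (2.82) and *Dkk1* (2.76). All 3 were below 5 CPM at d0, so they entered through d20 and could only be called higher. *Sfrp2* was the 1 member that was lower (-3.56), against 10.1% of genes. With means of log2 values the *Dkk1* difference of d20 to d0 was 1.45, not past the fold. The ratio for *Wnt5b* rests on 3 UMIs at d0 and was 97.4 as a ratio of shares of all UMIs, with a counting interval of 31.9 to 485. These 4 comparisons share the d0 cells, so their values stand side by side and are not independent.

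Between d12 and d20, *Dkk1* was higher past the fold (4.57), 1 of 10 members against 11.8% of 10441 genes. The members *Sfrp1* (-3.86), *Wif1* (-3.39) and *Wnt5a* (-2.86) were lower, 3 of 10 against 14.3% of genes. With other scaling factors the median of all genes moved by -0.42 (TMM) or -0.31 (DESeq2) in this comparison, and 29.8% or 33.5% of all genes past the fold were then higher, in place of 45.2%. Both scalings kept each of these 4 members past the fold and added *Wnt4* as lower. With means of log2 values *Dkk1* differed by 1.77, not past the fold, and *Frzb* was past it as higher (2.45). With cells of at least 6000 genes *Wnt5a* (-1.88) was not past it. Across the comparisons *Dkk1* (d1), *Sfrp2* (d8) and *Wnt5b* (d20) lost their place past the fold most often. They did so under 7, 8 and 6 of the alternatives in the closing section, which also lists the differences that lost it under fewer.

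Cells picked from colonies were set beside unpicked cells of the same day. At d8, *Sfrp1* had a mean of 169.5 CPM in 62 unpicked cells and 29.4 CPM in 20 colony cells, and *Wnt4* had 78.9 and 17.4 CPM. *Dkk2* had 139 and 206 CPM, but unpicked cells had 65.0 CPM in numbers 1 to 48 and 295 in 49 to 96, so its order turns with the range. *Dkk3* had 211 and 191 CPM. Fibroblast markers summed to 11780.5 CPM in unpicked and 6617.1 CPM in colony cells of d8, and XEN markers to 60.8 and 84.9 CPM.

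On day 12 the kept colony cells fell into sets by number, with different content. No cell numbered between 24 and 49 was kept. The 21 kept cells numbered 1 to 24 had fibroblast markers of 4302.9 CPM and XEN markers of 425 CPM, and the 30 cells numbered 49 to 96 had 222 and 1197.8 CPM, close to the d20 values of 290.7 and 1517.3 CPM. *Wif1* had 77.6 CPM in the first set and 4.555 CPM in the second, where 2 of 30 cells had a UMI and the mean without the highest cell was 0.0718 CPM. For *Wnt5a* the levels were 166 and 32.65 CPM (109 and 21.0 without the highest cell of each set), and for *Sfrp1* 175 and 56.8 CPM. At d20 these genes had 4.99, 30.75 and 27.2 CPM, and at d12 they had 62.0, 229.6 and 409 CPM. The second set thus lay near d20 for *Wif1* and *Wnt5a*, and the first set had *Wnt5a* and *Sfrp1* between d12 and d20.

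*Frzb* and *Dkk1* were compared in the same sets. At least 20 CPM of *Frzb* were found in 21 of 67 cells at d12, 7 of 21 in the first colony set, 18 of 30 in the second and 28 of 38 at d20. *Dkk1* reached 20 CPM in 0, 0, 2 and 10 cells. *Dkk3* had means of 190.0, 92.5, 124.6 and 77.2 CPM in this order, but in the second colony set a single cell of 1775.7 CPM lifted the mean from 67.6 CPM, and the median there was 13.4 CPM. Median depths were 768565, 416789, 276240 and 195480 UMIs. Whether a number range is a library is not known here, so library and cell state cannot be told apart.

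**Figure D3:**
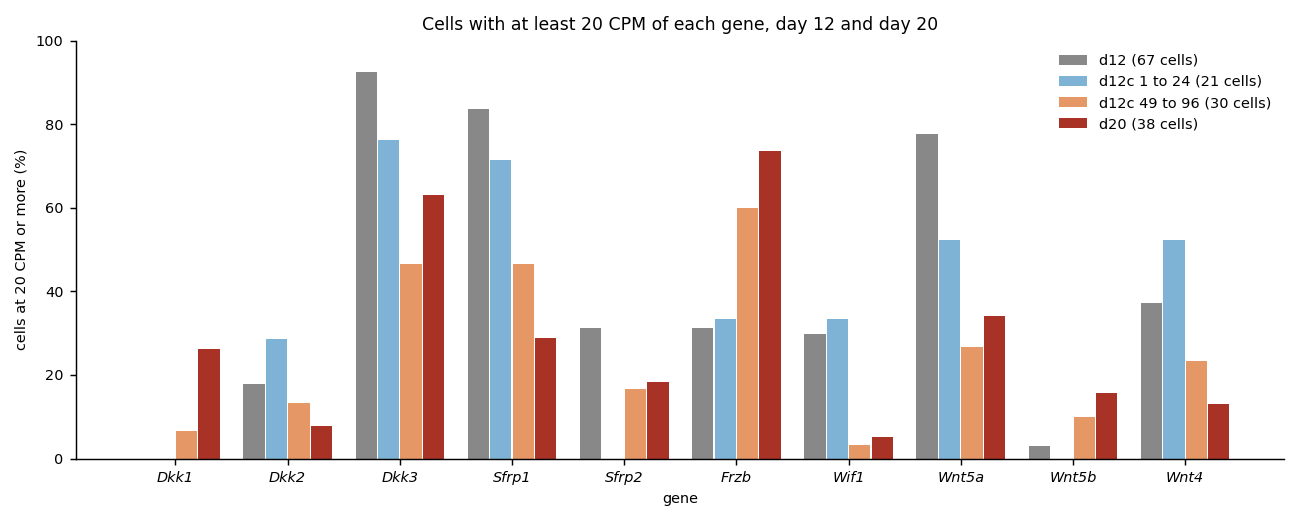
Percentage of cells with at least 20 CPM of each gene in d12 (67 cells), in d12c cells numbered 1 to 24 (21 cells) and 49 to 96 (30 cells), and in d20 (38 cells), on an axis from 0 to 100. Among d20 cells 73.7% reach this level for *Frzb* and 5.26% for *Wif1*, and among d12 cells 31.3% and 29.9%.

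Number ranges also differed within other days. In 7 groups both ranges, 1 to 48 and 49 to 96, held at least 10 kept cells, and 11 of the 70 ratios of means were above 4 or below 1 in 4. At d4 the cells numbered 1 to 48 had 1.79 CPM of *Frzb* and 109.5 CPM of *Wnt4*, and those numbered 49 to 96 had 44.4 and 18.8 CPM, at median depths of 778218 and 322066 UMIs. At d2, *Wif1* had 124.5 CPM in the lower and 8.72 CPM in the upper numbers. The levels of these genes at d2 and d4 are therefore averages of unlike sets of cells.

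In single cells the antagonists were detected in changing numbers. After thinning to 50000 UMIs, a cell of d0, d1 or d20 held UMIs of a median of 2 of the 7 antagonists, and a cell of d4 or d8 a median of 4. At least 5 were found in 28 of 73 thinned cells of d4 (38.4%), 1 of 71 of d0 and 0 of 36 of d20. No ligand UMI was left in 23 of 71 thinned cells of d0, 1 of 59 of d8 and 17 of 36 of d20.

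The antagonist with the highest CPM in a cell was most often *Sfrp2* at d0 (33 of 72 cells), *Dkk2* at d1 (17 of 40), *Wif1* at d5 (15 of 36), *Dkk3* at d8 (30 of 62), *Sfrp1* at d12 (30 of 67) and *Frzb* at d20 (15 of 38, with *Dkk3* in 14). Per kilobase of the longest coding transcript, a scale chosen after seeing the data, the same genes led in these groups. At d2 and d3 *Dkk2* led by CPM, but *Sfrp2* and *Wif1* led per kilobase.

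Over the cells of 1 group, 296 pairs of members that each had a UMI in at least 1 of 2 cells gave Spearman correlations of CPM between -0.497 and 0.734, with a median of 0.0766. Of these, 9 were above 0.4 and 2 below -0.4. The highest was *Wnt5a* with *Sfrp1* over the 20 cells of d8c, where these genes had correlations of -0.164 and -0.150 with depth. Cells share library, depth and source, and weak values in sparse counts are no finding.

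Over the 12 group means some members ran together. The log2 levels of *Wnt5a* and *Wif1* had a Pearson correlation of 0.895 and those of *Wnt5a* and *Wnt4* one of 0.801. These were the highest values among pairs of members, and *Frzb* and *Dkk2* had the lowest, -0.490. By the same measure, over 8122 other genes with a mean of at least 20 CPM in some group, the patterns nearest to *Wnt5a* were those of *Selenow* (0.971), *Pfn2* (0.968) and *Bloc1s1* (0.966). *Abhd8* (0.948) and *Sema5a* (0.946) were among the nearest to *Wif1*. *Dkk3* was nearest to *Cpxm2* (0.961), *Creb3l1* (0.940) and *Ackr3* (0.937), and *Sfrp1* to *Pamr1* (0.915), *Ubl3* (0.907) and *Zfp36l1* (0.907). The nearest patterns to *Sfrp2* were *Pls3* (0.926), *Map3k20* (0.893) and *Rgs12* (0.887), and those to *Wnt4* were *Fam162b* (0.942), *Snap91* (0.929) and *Itm2b* (0.921). *Dkk1* was nearest to *Atad1* (0.926), *Dlg5* (0.922) and *Qars* (0.917), *Dkk2* to *Plcb3* (0.904), *Gtf2h5* (0.897) and *Nfic* (0.895), and *Frzb* to *Gdpd1* (0.896), *Serinc2* (0.895) and *Idh3b* (0.888). *Wnt5b* stayed under 20 CPM in each group and was not compared.

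Other genes of the pathway were described from lists. Of 16 other Wnt ligands, 6 reached 5 CPM in d0 or d12, of which 2 were higher past the fold at d12 (9.58% over all genes that reach it) and 0 lower (5.27%). In d0 or d20, 3 reached it, of which 2 were higher at d20 (9.03%) and 1 lower (10.1%). *Wnt2*, which signals through beta-catenin, had the highest level of the list. It had 12.1 CPM at d0, 76.8 at d8 and 103 at d12, and no UMI was counted in the 38 cells of d20, which makes d20 at least 30.1-fold lower than d0 and at least 334-fold lower than d12. Such bounds set a count of 0 to 3 UMIs over the group. *Wnt11* had 6.08 CPM at d0 and 37.7 CPM at d20, *Wnt16* had 4.07 and 20.8 CPM, and *Wnt7b* had 1.04 CPM at d0 and 8.54 CPM at d12.

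Of 10 other secreted antagonists, 3 reached 5 CPM in d0 or d12, and 3 of these were higher past the fold at d12 (9.58%) and 0 lower (5.27%). Of 4 that reached it in d0 or d20, 2 were higher (9.03%) and 2 lower (10.1%). *Notum*, which removes the lipid of Wnt proteins and is a feedback target of the pathway, had 3.06 CPM at d0, 23.4 at d1, 347 at d3, 161 at d12 and 37.1 at d20. *Sostdc1*, an antagonist of Wnt and BMP signals, had 20.2 CPM at d0, 0.438 at d1, 780.6 at d8, 195 at d12 and no UMI at d20, at least 52.7-fold below d0. *Igfbp4*, a binding protein of insulin-like growth factors that can also inhibit Wnt signals, had 75.02 CPM at d0, 594 at d12 and 14.4 at d20. *Dkkl1* had no UMI at d0, 22.4 CPM at d12c and 10.95 CPM at d20, at least 163-fold higher than d0. At d20 it had a UMI in 6 of 38 cells and 20 CPM in 4, against 12 and 5 cells for the collagen *Col1a2*. That collagen is far more abundant in fibroblasts, so its counts are no measure of stray RNA for *Dkkl1*, which was not tested.

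Of 18 receptors and co-receptors, 11 reached 5 CPM in each of the comparisons with d12 and d20. At d12 4 of these were higher (9.58%) and 1 lower (5.27%) past the fold, and at d20 1 was higher (9.03%) and 3 lower (10.1%). *Fzd7* had 24.5 CPM at d0, 203 at d12 and 5.84 at d20, and *Fzd1* had 16.7, 128 and 1.29 CPM. *Fzd3* had 15.6 CPM at d0, 23.5 at d12 and 115.6 at d20. *Fzd7* and *Fzd1* were thus highest at d12 and *Fzd3* at d20. *Kremen2*, a receptor of Dkk proteins, had 5.89 CPM at d0, where 1 of 72 cells reached 20 CPM and the summed UMIs gave 1.59 CPM, and 0.0955 CPM at d12, and no UMI at d20, at least 4.67-fold below d0.

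Of 11 genes for Wnt secretion and the R-spondin arm, which raises the number of Frizzled receptors, 8 reached 5 CPM in d0 or d12, with 4 higher (9.58%) and 0 lower (5.27%) at d12. In d0 or d20, 5 reached it, with 1 higher (9.03%) and 2 lower (10.1%) at d20. *Wls*, needed to bring Wnt proteins to the cell surface, had 120.2 CPM at d0, 163 at d4, 81.2 at d12 and 14.9 at d20. *Porcn*, which adds the lipid to Wnt proteins, had 3.28 CPM at d0, 22.4 at d12 and 42.3 at d20. The R-spondins *Rspo1* (1.34 and 16.8 CPM at d0 and d12), *Rspo4* (2.08 and 33.3 CPM) and *Rspo3* (29.8 and 68.5 CPM) had no UMI at d20. For *Rspo3* this is at least 88.0-fold below d0.

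Of 11 targets and feedback genes of beta-catenin, 8 reached 5 CPM in the comparisons of d1, d8 and d12 with d0, and 9 in that of d20. At d1 5 were higher (2.56%) and 1 lower (3.82%), at d8 5 (7.03%) and 0 (4.68%), at d12 5 (9.58%) and 0 (5.27%), and at d20 6 (9.03%) and 0 (10.1%). *Axin2*, the standard readout, had 5.39 CPM at d0, 45.7 at d1, 105 at d8, 62.6 at d12 and 88.0 at d20. *Lef1* had 16.3 CPM at d0, 116 at d1, 153 at d8, 121.5 at d12 and 120.4 at d20. *Nkd1* had 17.4 CPM at d0, 647 at d5, 214 at d12 and 135 at d20, *Sp5* had 0.574 CPM at d0 and 25.4 at d20, and *Ccnd1* had 243 CPM at d0, 631.5 at d1, 687 at d2, its highest level, 154 at d12 and 162 at d20. *Nkd2*, the 1 lower at d1, had 19.75 CPM at d0, 3.19 at d1, 151 at d8, 38.3 at d12 and 5.97 at d20. *Myc* had 74.2, 47.7, 33.5, 188.7 and 43.9 CPM in these groups. *Axin2* and *Lef1* were thus higher at d1, d12 and d20 than at d0, and *Ccnd1* did not pass the fold at d12 or d20.

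Markers of further cell types were low or led by a gene that is not specific to them. The 5 endothelial markers summed to at most 36.7 CPM, at d12, of which *Kdr* made 36.2 with *Pecam1* and *Emcn* at 0. The 5 macrophage markers summed to at most 29.6 CPM, at d8c, with *Ptprc*, *Adgre1* and *Tyrobp* at 0. The 5 markers of neural crest and glia summed to at most 162 CPM, at d12, nearly all from *S100b*, with *Sox10*, *Erbb3* and *Foxd3* at 0. Muscle markers summed to 368 CPM at d12c, where 2 of 51 cells reached 100 CPM. These 2 cells had 260 CPM of *Wif1*, and without them the *Wif1* level of d12c was 25.4 in place of 34.6 CPM.

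Promoters were read for the motif of TCF and LEF factors. The RefSeq windows (GRCm38.p6) run from 250 bases before to 50 bases after the start of a transcript. Windows were found for 7 of the 10 members and not for *Dkk3*, *Sfrp1* and *Wnt5a*. CTTTGAT or CTTTGAA was searched on both strands, and 8.65% of all 32851 windows hold at least 1 match. Of the 9 windows of members, 2 hold a match, 1 of *Dkk1* and 1 of the 3 of *Wnt5b*, and the windows of *Dkk2*, *Sfrp2*, *Frzb*, *Wif1* and *Wnt4* hold none of these letters. Among the listed beta-catenin targets with a window, *Sp5* and *T* hold a match. *Axin2*, *Lef1*, *Nkd1*, *Nkd2*, *Tcf7* and *Cdx2* hold none, so a match or its lack does not tell a target here. A match is a description of the sequence and not a site. The 250 bases before the start are printed for *Dkk1* and *Wnt5b*, 5′ to 3′ on the strand of the gene, with the match in capitals. The *Dkk1* stretch is chr19:30549497-30549746 and the *Wnt5b* stretch chr6:119449387-119449636, both on the minus strand of GRCm38.p6, and the matches begin 117 and 71 bases before the start.
Dkk1: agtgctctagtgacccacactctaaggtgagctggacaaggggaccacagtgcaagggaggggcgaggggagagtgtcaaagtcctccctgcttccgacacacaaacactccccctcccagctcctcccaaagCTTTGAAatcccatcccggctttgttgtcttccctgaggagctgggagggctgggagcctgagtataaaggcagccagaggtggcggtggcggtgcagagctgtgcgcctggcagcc
Wnt5b: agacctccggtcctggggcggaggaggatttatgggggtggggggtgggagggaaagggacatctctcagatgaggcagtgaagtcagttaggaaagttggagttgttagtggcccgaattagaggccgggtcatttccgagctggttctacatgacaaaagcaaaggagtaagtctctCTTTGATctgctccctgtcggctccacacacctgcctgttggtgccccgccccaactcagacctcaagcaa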

How the data were processed

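As deposited, the values are counts from the authors. The submitters' processing notes name sorting by barcode, trimming, the mm9 transcriptome and removal of duplicates by UMI. The aligner is not given in the sources used here. Left out of library sizes were 92 ERCC spike-ins (5.43% of UMIs) and 4 entries named by repeated dates. The 5 largest counts appear in rounded form. Kept cells had 17633 to 6004864 UMIs. For thinned shares, 647 cells were drawn down to 50000 UMIs, and 23 were too shallow. Members and lists were chosen with earlier results of these data known. Named genes are the members, *Axin2*, *Lef1*, each list's gene of highest level, its 2 largest rises and 2 largest falls past the fold in d12 and d20 against d0, and the 3 nearest patterns of each member above 20 CPM in some group, of which 1 is left out of the text. *Nkd2*, *Myc* and the targets named with the motifs were added to these. The fold comparison was run on simulated Poisson counts with 8-fold changes in abundant genes. Such counts lack the unevenness over cells seen here, so the run says little about genes such as *Dkk1*. Levels per kilobase, the limit of 20 CPM per cell and leaving out cells high in muscle markers were added after seeing the data. Positions are from GENCODE M1. Python 3.11.15, numpy 2.4.6, pandas 2.3.3, scipy 1.17.1, R 4.3.3, edgeR 4.0.16 and DESeq2 1.42.0 were used.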

Additional observations from a re-analysis of the deposited data

How the results depend on the processing

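The 21 member differences past the fold were computed again under 14 alternatives. All 284 values had the same sign, and 255 stayed past the fold. Another 4 alternatives change only the thresholds and leave the differences as they were. The 18 were 17 set in advance, with earlier results of these data known, and 1, without cells high in muscle markers, chosen after seeing the data. *Sfrp2* at d1 and d20 against d0, *Dkk3* and *Wif1* at d8, *Wnt4* at d8, *Dkk3* at d12, *Frzb* at d20, and *Sfrp1* and *Wif1* at d20 against d12 stayed past it under each alternative run. *Dkk1* at d1 (0.92 to 2.47), *Sfrp2* at d8 (-2.68 to -0.95) and *Wnt5b* at d20 (0.77 to 3.38) were past it under 10, 10 and 11 alternatives. The remaining differences lost it less often. Of 18 alternatives, *Wnt4* at d12 was past it under 14 and *Frzb* at d12 under 15. *Sfrp1* and *Wif1* at d12 and *Wnt5a* at d8 were past it under 16, and *Sfrp2* at d12 under 17. Of 17 alternatives, *Dkk1* at d20 was past it under 14 against d0 and 15 against d12. For *Wnt5a* at d20 against d12 the number was 15. No paired analysis was possible because the batch of a cell is not known here. Depth limits shares of cells most at d20, with a median of 195480 UMIs. Other scaling moved the median of all genes by 0.18 (TMM) and 0.17 (DESeq2) for d12 against d0 and by -0.25 and -0.14 for d20 against d0. The ligand sum was highest at d8 under the 12 alternatives that hold all groups, and at d4 in cells numbered 49 to 96, which fill 7 groups. Counts past the fold that moved by more than 1.5 times, and moves of the day of the highest antagonist sum from 12, follow. Their cause was not tested, except that 2-fold, 8-fold, a larger pseudocount and a higher minimum change counts by construction.
Without a filter on cells: lower members 0 (d8 against d0), 2 (d20 against d0), 5 (d20 against d12), antagonist sum highest on day 5. With cells of at least 2000 genes: lower members 0 (d8 against d0), 2 (d20 against d0), antagonist sum highest on day 5. With cells of at least 6000 genes: higher members 2 (d20 against d12), antagonist sum highest on day 5. With means of log2 values: higher members 0 (d1 against d0), lower members 0 (d8 against d0), 2 (d20 against d0), higher all genes 448 (d8 against d0), 375 (d20 against d0), 639 (d20 against d12), lower all genes 98 (d1 against d0), 280 (d8 against d0). With UMIs summed over groups: higher members 2 (d1 against d0), lower members 0 (d8 against d0), antagonist sum highest on day 5. After thinning to 50000 UMIs: higher members 0 (d1 against d0), lower members 0 (d8 against d0), antagonist sum highest on day 5. With ERCC in the library size: antagonist sum highest on day 5. With TMM factors: higher all genes 789 (d20 against d12). With a pseudocount of 10: higher members 0 (d1 against d0), 2 (d12 against d0), 1 (d20 against d0), 0 (d20 against d12), lower members 0 (d8 against d0), higher all genes 52 (d1 against d0), 192 (d8 against d0), 343 (d12 against d0), 215 (d20 against d0), 257 (d20 against d12), lower all genes 88 (d1 against d0), 100 (d8 against d0), 108 (d12 against d0), 293 (d20 against d0), 593 (d20 against d12). At 2-fold: higher members 4 (d1 against d0), 7 (d8 against d0), 3 (d20 against d12), lower members 2 (d1 against d0), 2 (d20 against d0), 7 (d20 against d12), higher all genes 928 (d1 against d0), 1846 (d8 against d0), 1922 (d12 against d0), 2353 (d20 against d0), 3212 (d20 against d12), lower all genes 1116 (d1 against d0), 1477 (d8 against d0), 1918 (d12 against d0), 1940 (d20 against d0), 2395 (d20 against d12). At 8-fold: higher members 0 (d1 against d0), 1 (d12 against d0), 1 (d20 against d0), lower members 0 (d8 against d0), 0 (d12 against d0), higher all genes 79 (d1 against d0), 261 (d8 against d0), 453 (d12 against d0), 383 (d20 against d0), 353 (d20 against d12), lower all genes 121 (d1 against d0), 159 (d8 against d0), 149 (d12 against d0), 520 (d20 against d0), 895 (d20 against d12). With a minimum of 20 CPM: higher members 0 (d1 against d0), higher all genes 125 (d1 against d0), 401 (d8 against d0), 595 (d12 against d0), 480 (d20 against d0), 718 (d20 against d12), lower all genes 186 (d1 against d0), 244 (d8 against d0), 284 (d12 against d0), 542 (d20 against d0), 911 (d20 against d12). In cells numbered 1 to 48: higher members 0 (d1 against d0), lower members 0 (d8 against d0). In cells numbered 49 to 96: higher members 3 (d12 against d0), lower all genes 873 (d8 against d0), 832 (d12 against d0). Without cells high in muscle markers: higher members 2 (d1 against d0), 2 (d20 against d12), lower members 2 (d1 against d0). Without the highest cell: lower members 2 (d20 against d0).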
